A study of Mus musculus with 10 samples.

Results

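The genes described here encode the nuclear subunits of the mitochondrial respiratory chain and ATP synthase, with cytochrome c and the complex I assembly factors that share the subunits' name stem. They were chosen by symbol alone: names starting with Nduf, Uqcr or Atp5, the Cox4 to Cox8 families, and Sdha, Sdhb, Sdhc, Sdhd, Cyc1 and Cycs. Of 19938 genes measured by a probe set with 1 gene symbol, 91 met this rule, and 18 of the 91 had more than 1 probe set. They comprised 34 subunits of complex I (6 core and 28 accessory), 7 complex I assembly factors, 4 subunits of complex II, 9 of complex III, cytochrome c, 19 of complex IV (8 of them tissue variants) and 17 of complex V. Ndufb4, Cox7c and the 13 subunits encoded in mitochondrial DNA were not analysed in the gene tests.

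RNA came from CD4+ spleen cells, isolated with magnetic beads from female mice 8 weeks of age, and was hybridised to 10 Affymetrix arrays. NOD is an inbred strain that develops autoimmune diabetes spontaneously, and B10 is a strain that does not. The labels give the genotypes NODk and B10Br. The groups were NOD at T1 (n = 2), B10 at T1 (n = 2), NOD at T0 (n = 3) and B10 at T0 (n = 3). T1 cells were treated for 4 h with the phorbol ester PMA at 10 ng/ml and the calcium ionophore ionomycin at 1 uM, which bypass the T cell receptor. T0 is labelled basal, and the protocol leaves unclear whether those cells were also cultured. Replicate 1 at T1 is not analysed here. The labels call the replicates biological without tying them to animals, so p-values measure only the spread between these samples.

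Values are log2 intensities, and a difference of 1 is a 2-fold change. Levels of different genes are not compared here beyond their position relative to all genes, because each probe set has its own brightness. Array medians lay between 6.18 and 6.23. The median level of the 91 genes was 8.74, against 6.31 for all genes, and 83 of the 91 lay above the median of all genes. No filter on low values was applied, so all 91 entered every test. The T cell gene Cd4 had values of 9.06 to 11.21 on every array, while Cd8a and Cd8b1 together averaged 6.75 to 7.35. Means of B cell, macrophage and neutrophil markers were also lower at T1 than at T0 in both strains, and erythroid markers were higher in all NOD than in all B10 arrays. These values are given below beside the results they accompany. In such sorted bulk samples, fewer cells of a type and less RNA per cell cannot be told apart.

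In the chain, complex I passes electrons from NADH and complex II passes electrons from succinate to ubiquinone, complex III hands them to cytochrome c, and complex IV transfers them to oxygen. Complexes I, III and IV pump protons, and complex V uses the gradient to make ATP. Complexes I, III, IV and V combine subunits encoded in mitochondrial DNA with a larger number of nuclear subunits, which are imported after translation. T cells are known to raise both glycolysis and mitochondrial biogenesis on the way from rest to division.

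Many nuclear respiratory chain genes carry sites for the factors NRF1, GABPA (an ETS factor) and YY1 near the transcription start. Exact strings for such sites were searched in RefSeq promoters (GRCm38.p6, 250 bases before to 50 bases after the start), on both strands. A promoter was listed for 74 of the 91 genes. The NRF1 string GCGCATGCG, whose overlapping match on the opposite strand was counted once per gene, occurred in 11 of the 74 (14.9%), against 1.95% of 27025 genes. The ETS string CCGGAAG occurred in 18 (24.3%, against 9.93%) and the YY1 string AAGATGGCG in 7 (9.46%, against 1.64%). The E-box CACGTG, a string bound by MYC among others, occurred in 6 (8.11%, against 8.09%). A match is a description of the sequence and not evidence of binding. The 200 bases before the start are shown for 4 genes with an NRF1 string, on the strand of the gene, with the matched strings in capitals. Ndufaf4 and Cycs are shown because they are the 2 genes with the string that rose in both strains, while Cox6a1 and Atp5k carry the same string and passed no stimulation test. Their positions are chr4:24897883-24898082, plus strand, for Ndufaf4, chr6:50566570-50566769, minus strand, for Cycs, chr5:115348959-115349158, minus strand, for Cox6a1, and chr5:108434400-108434599, minus strand, for Atp5k. In Cox6a1 the capitals near the 3′ end mark the ETS string on the opposite strand.
Ndufaf4: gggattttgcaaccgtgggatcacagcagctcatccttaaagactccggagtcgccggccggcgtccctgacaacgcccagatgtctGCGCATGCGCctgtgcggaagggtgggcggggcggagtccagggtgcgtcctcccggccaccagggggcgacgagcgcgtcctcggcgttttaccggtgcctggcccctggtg
Cycs: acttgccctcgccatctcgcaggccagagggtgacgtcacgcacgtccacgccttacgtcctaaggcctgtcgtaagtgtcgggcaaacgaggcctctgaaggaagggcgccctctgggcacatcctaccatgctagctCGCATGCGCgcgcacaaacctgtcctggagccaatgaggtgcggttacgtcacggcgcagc
Cox6a1: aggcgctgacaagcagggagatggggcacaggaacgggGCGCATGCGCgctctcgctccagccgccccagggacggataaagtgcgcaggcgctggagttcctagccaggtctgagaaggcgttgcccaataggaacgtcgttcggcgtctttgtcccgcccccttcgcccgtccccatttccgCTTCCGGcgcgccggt
Atp5k: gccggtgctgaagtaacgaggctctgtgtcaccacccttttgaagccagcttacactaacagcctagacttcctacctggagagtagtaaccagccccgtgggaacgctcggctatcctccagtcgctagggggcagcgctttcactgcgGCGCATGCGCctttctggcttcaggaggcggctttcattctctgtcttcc

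Promoter strings of this kind were present both in genes that responded and in genes that did not. Of the 13 genes that rose in both strains, 10 had a listed promoter, and 2 of the 10 held the NRF1 string, 1 the ETS string, 1 the E-box and 0 the YY1 string. Of the 54 genes without a call in either strain, 42 had a listed promoter, and 7 of the 42 held the NRF1 string, 13 the ETS string, 2 the E-box and 3 the YY1 string.

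Stimulation changed the respiratory chain genes unevenly and by modest amounts. In NOD cells 14 of 91 rose and 14 fell at an adjusted p under 0.05, against 16.1% of all genes that rose and 19.5% that fell. In B10 cells 21 rose and 5 fell, against 13.7% and 18.1% of all genes. Calls were more frequent among brighter genes, and 83 of the 91 lie above the median level of all genes. Of the genes above that level, 21.5% rose and 34.6% fell in NOD, beside 15.4% and 15.4% of the 91. In B10, 23.1% of them rose and 32.2% fell, beside 23.1% and 5.49% of the 91, so that the share of rises in B10 equalled that of the brighter genes. The median change of the 91 genes was 0.012 in NOD (0.081 over all genes) and 0.111 in B10 (0.031 over all genes), both on the log2 scale. The split between rises and falls depended on how the arrays were scaled. With arrays aligned at their 75th percentile, all genes had a median change of 0.262 in NOD and 0.164 in B10, and the counts among the 91 became 34 rises and 6 falls in NOD and 36 rises and 3 falls in B10. Over all genes the same alignment gave 7455 rises and 2934 falls in NOD, against 3201 and 3884 without it, and 4081 rises and 2861 falls in B10, against 2729 and 3613 without it. Single arrays also moved the number of falls in NOD, which was 7 without NOD T1 replicate 3, 9 without NOD T0 replicate 1 and 9 without NOD T0 replicate 3.

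Across both strains, 13 genes rose in each and 4 fell in each. The 13 were the assembly factors Ndufaf1, Ndufaf2, Ndufaf4 and Ndufaf6, the complex I subunits Ndufa5, Ndufa12 and Ndufab1, the complex III subunits Cyc1, Uqcrq and Uqcrfs1, cytochrome c (Cycs), Cox5a of complex IV and Atp5g3 of complex V. The 4 were Ndufs4, Ndufv3 and Ndufb3 of complex I and Sdha of complex II. Over all genes, 10.2% rose in both strains and 15.7% fell in both. No gene of the 91 rose in one strain and fell in the other. Genes named below for the largest changes were taken from those whose T1 and T0 arrays did not overlap. Such separation was common, since T1 arrays were all higher for 31% of genes and all lower for 25.1% in NOD, and for 26.8% and 25.6% in B10. The plot by complex shows that within most complexes some genes had positive and others negative changes. The counts per complex given below are small and were not tested against the shares of all or of brighter genes given above.

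**Figure D1:**
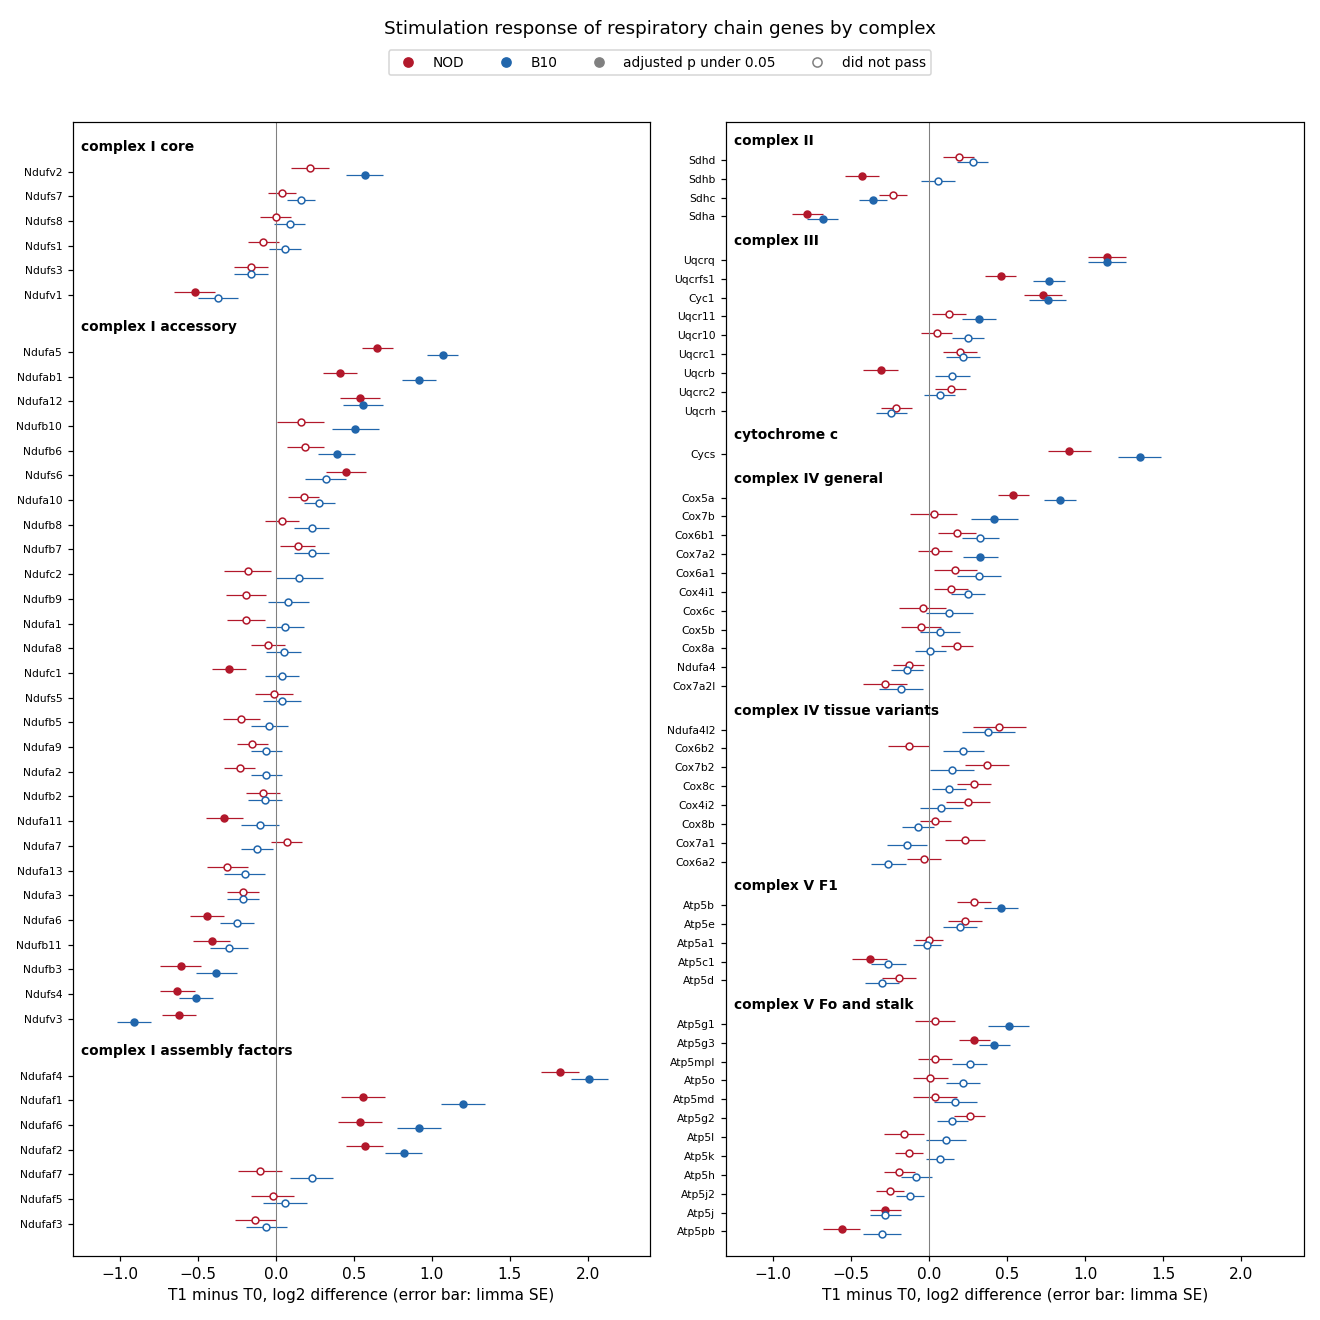
Log2 change on stimulation (T1 minus T0) of each of the 91 genes, arranged by complex and function, in NOD and in B10, with limma's standard error as bars; filled points passed an adjusted p of 0.05. The assembly factors of complex I extend furthest to the positive side, with Ndufaf4 at 1.82 in NOD and 2.01 in B10, while Sdha of complex II and Ndufv3 of complex I lie among the most negative values.

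The assembly factors of complex I, which are needed to build the complex but are not part of it, held the largest rise of the 91 genes. In each strain 4 of 7 rose and 0 fell, with a median change of 0.54 in NOD and 0.82 in B10. Ndufaf4, which acts in an early assembly intermediate, had values of 9.21 and 9.18 in NOD at T1, against 7.44, 7.24 and 7.44 in NOD at T0. In B10 its values were 9.26 and 9.26 at T1, against 7.48, 7.18 and 7.10 at T0. T1 and T0 arrays did not overlap in either strain. The rise was 3.53-fold in NOD (log2 change 1.82 ± 0.12, adjusted p = 1.36e-07) and 4.03-fold in B10 (2.01 ± 0.12, adjusted p = 6.05e-08). It is one of the genes whose promoter stretch is printed above.

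Ndufaf1, a chaperone of the assembly of the membrane arm, had values of 7.40 and 7.20 in NOD at T1, against 6.79, 6.62 and 6.81 in NOD at T0. In B10 the values were 8.05 and 7.73 at T1, against 6.79, 6.85 and 6.44 at T0. Both B10 arrays at T1 lay above both NOD arrays at T1. It rose 1.47-fold in NOD (0.56 ± 0.14, adjusted p = 0.00785) and 2.29-fold in B10 (1.2 ± 0.14, adjusted p = 2.12e-05). Ndufaf2, which is found on a late assembly intermediate, rose by 0.57 ± 0.12 (adjusted p = 0.0017) in NOD and by 0.82 ± 0.12 (adjusted p = 8.97e-05) in B10. For Ndufaf6, another factor of early assembly, the changes were 0.54 ± 0.14 (adjusted p = 0.00736) in NOD and 0.92 ± 0.14 (adjusted p = 0.000128) in B10. Without NOD T1 replicate 2 the NOD calls were lost for Ndufaf1 (0.46, adjusted p = 0.0686) and Ndufaf6 (0.30, adjusted p = 0.0994). Leaving out a T1 array leaves 1 array in its group, which is then assumed to vary like the other groups. Ndufaf3, Ndufaf5 and Ndufaf7 did not pass in either strain, with changes of -0.13, -0.02 and -0.10 in NOD and -0.06, 0.06 and 0.23 in B10.

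The structural subunits of complex I moved in both directions. Of 28 accessory subunits, 4 rose and 7 fell in NOD and 5 rose and 3 fell in B10, and of 6 core subunits 0 rose and 1 fell in NOD and 1 rose and 0 fell in B10. Ndufa5, an accessory subunit of the peripheral arm, had values of 8.55 and 8.34 in NOD at T1, against 7.88, 7.71 and 7.80 in NOD at T0. In B10 they were 8.80 and 8.73 at T1, against 7.66, 7.64 and 7.78 at T0. It rose 1.57-fold in NOD (0.65 ± 0.10, adjusted p = 0.000247) and 2.09-fold in B10 (1.07 ± 0.10, adjusted p = 3.58e-06), with no overlap between T1 and T0 arrays. Ndufab1, the mitochondrial acyl carrier protein, which also serves fatty acid synthesis in the organelle, rose by 0.41 ± 0.11 (adjusted p = 0.0122) in NOD and by 0.92 ± 0.11 (adjusted p = 2.82e-05) in B10. Its NOD call was lost without NOD T1 replicate 2 (0.35, adjusted p = 0.0783). Ndufa12, an accessory subunit close to the NADH-oxidising module, rose by 0.54 ± 0.13 (adjusted p = 0.00618) in NOD and 0.56 ± 0.13 (adjusted p = 0.00487) in B10, and its B10 call was lost without B10 T1 replicate 2 (0.38, adjusted p = 0.0892).

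Accessory subunits that fell in both strains included Ndufs4 and Ndufv3, both of the NADH-oxidising end of the complex. Ndufs4, whose loss causes Leigh syndrome in humans, had values of 8.44 and 8.26 in NOD at T1, against 9.13, 8.81 and 9.03 in NOD at T0. In B10 its values were 8.63 and 8.51 at T1, against 9.11, 9.11 and 9.02 at T0. Every T1 array lay below every T0 array of its strain, and the changes were -0.63 ± 0.11 (adjusted p = 0.000633) in NOD and -0.51 ± 0.11 (adjusted p = 0.00323) in B10. The B10 call was just lost without both B10 arrays of replicate 3 (-0.48, adjusted p = 0.0503). For Ndufv3 the values were 7.11 and 7.37 in NOD at T1, against 7.84, 7.80 and 7.95 in NOD at T0. In B10 they were 7.13 and 7.17 at T1, against 8.00, 7.97 and 8.22 at T0. Here too no T1 array reached the T0 range, with changes of -0.62 ± 0.11 (adjusted p = 0.000801) in NOD and -0.91 ± 0.11 (adjusted p = 3.41e-05) in B10. Ndufb3 of the membrane arm fell by 0.61 (adjusted p = 0.00262) in NOD and by 0.38 (adjusted p = 0.0443) in B10, the B10 call being lost under 9 of 20 alternatives, alignment at the 75th percentile among them (-0.24, adjusted p = 0.174). Ndufa6 (-0.44 ± 0.11, adjusted p = 0.00743) and Ndufb11 (-0.41 ± 0.12, adjusted p = 0.0138), 2 further accessory subunits, fell in NOD, calls that were lost with that alignment (adjusted p = 0.0609 and 0.0948) and without NOD T1 replicate 3 (0.0539 and 0.0553). Among the core subunits, Ndufv1, which binds NADH and flavin, fell in NOD (-0.52 ± 0.13, adjusted p = 0.00836) and had a change of -0.37 ± 0.13 (adjusted p = 0.0513) in B10. Its NOD call was lost without NOD T1 replicate 2 (-0.39, adjusted p = 0.0818). Ndufv2, the iron-sulphur partner of Ndufv1, rose in B10 (0.57 ± 0.12, adjusted p = 0.00194) and had a change of 0.22 ± 0.12 (adjusted p = 0.18) in NOD.

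Complex II, succinate dehydrogenase, is the one complex of the chain that is also an enzyme of the citrate cycle, and all of its subunits are nuclear. None of its 4 genes rose in either strain, and 2 fell in each. Of all genes above the median level, 34.6% fell in NOD and 32.2% in B10, so these counts do not set the complex apart. Sdha, the flavoprotein that oxidises succinate, had values of 9.18 and 9.19 in NOD at T1, against 10.00, 9.84 and 10.06 in NOD at T0. In B10 the values were 9.57 and 9.39 at T1, against 10.14, 10.15 and 10.18 at T0. The T1 arrays of each strain lay below all its T0 arrays, and Sdha was 1.71-fold lower at T1 in NOD (-0.78 ± 0.10, adjusted p = 4.81e-05) and 1.6-fold lower at T1 in B10 (-0.68 ± 0.10, adjusted p = 0.000141). Sdhb, the iron-sulphur subunit, had values of 8.18 and 7.92 in NOD at T1, against 8.51, 8.37 and 8.58 in NOD at T0. In B10 its values were 8.46 and 8.40 at T1, against 8.42, 8.41 and 8.28 at T0. The T1 arrays lay below the T0 arrays in NOD, whereas the B10 arrays of both states were close together. The change was -0.43 ± 0.11 (adjusted p = 0.00738) in NOD and 0.06 ± 0.11 (adjusted p = 0.776) in B10, and the NOD call was lost without NOD T1 replicate 3 (-0.31, adjusted p = 0.0903). The difference between these responses did not pass (interaction -0.49 ± 0.15, adjusted p = 0.322). Of the membrane anchors, which bind ubiquinone with haem, Sdhc had differences of -0.23 ± 0.09 (adjusted p = 0.0775) in NOD and -0.36 ± 0.09 (adjusted p = 0.00874) in B10, where the call was lost without B10 T1 replicate 2 (-0.31, adjusted p = 0.0852). Sdhd had 0.19 ± 0.10 (adjusted p = 0.165) in NOD and 0.28 ± 0.10 (adjusted p = 0.0519) in B10. With arrays aligned at the 75th percentile the calls of Sdhb in NOD (-0.25, adjusted p = 0.0656) and Sdhc in B10 (-0.23, adjusted p = 0.114) were lost, and those of Sdha were kept.

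In complex III, 3 of 9 genes rose and 1 fell in NOD, and 4 rose and 0 fell in B10. Uqcrq, a small subunit that contacts cytochrome b, had values of 8.98 and 8.78 in NOD at T1, against 7.88, 7.70 and 7.63 in NOD at T0. In B10 they were 8.77 and 8.97 at T1, against 7.80, 7.62 and 7.76 at T0. T1 stood above T0 on all arrays of both strains, and the rise was 2.21-fold in NOD (1.14 ± 0.12, adjusted p = 5.36e-06) and 2.21-fold in B10 (1.14 ± 0.12, adjusted p = 5.18e-06). Cyc1, the cytochrome c1 that passes electrons to cytochrome c, had values of 9.82 and 9.89 in NOD at T1, against 9.19, 8.90 and 9.28 in NOD at T0. The B10 values were 9.73 and 9.81 at T1, against 9.06, 9.03 and 8.94 at T0. Its rise was 1.66-fold in NOD (0.73 ± 0.12, adjusted p = 0.000251) and 1.69-fold in B10 (0.76 ± 0.12, adjusted p = 0.000181), again without overlap. Uqcrfs1, the Rieske iron-sulphur protein, rose by 0.46 ± 0.10 (adjusted p = 0.00202) in NOD and 0.77 ± 0.10 (adjusted p = 3.1e-05) in B10. The core subunits Uqcrc1 and Uqcrc2 did not pass, with changes of 0.20 and 0.14 in NOD and 0.22 and 0.07 in B10. Uqcrb fell in NOD (-0.31 ± 0.11, adjusted p = 0.0429) and had a change of 0.15 ± 0.11 (adjusted p = 0.364) in B10. The NOD call was lost under 9 of 20 alternatives, with -0.13 (adjusted p = 0.329) after alignment at the 75th percentile.

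Cycs, cytochrome c, carries electrons between complexes III and IV and triggers caspase activation when released from mitochondria. Its values were 10.97 and 10.95 in NOD at T1, against 10.25, 9.86 and 10.08 in NOD at T0. In B10 they were 11.19 and 11.0 at T1, against 9.55, 9.97 and 9.69 at T0. All T1 arrays were above all T0 arrays, and the rise was 1.86-fold in NOD (0.90 ± 0.14, adjusted p = 0.000229) and 2.56-fold in B10 (1.35 ± 0.14, adjusted p = 6.54e-06). Its 3 probe sets gave 0.90, 0.82 and 0.96 in NOD and 1.35, 1.29 and 1.01 in B10. The interaction did not pass (-0.46 ± 0.20, adjusted p = 0.51).

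**Figure D2:**
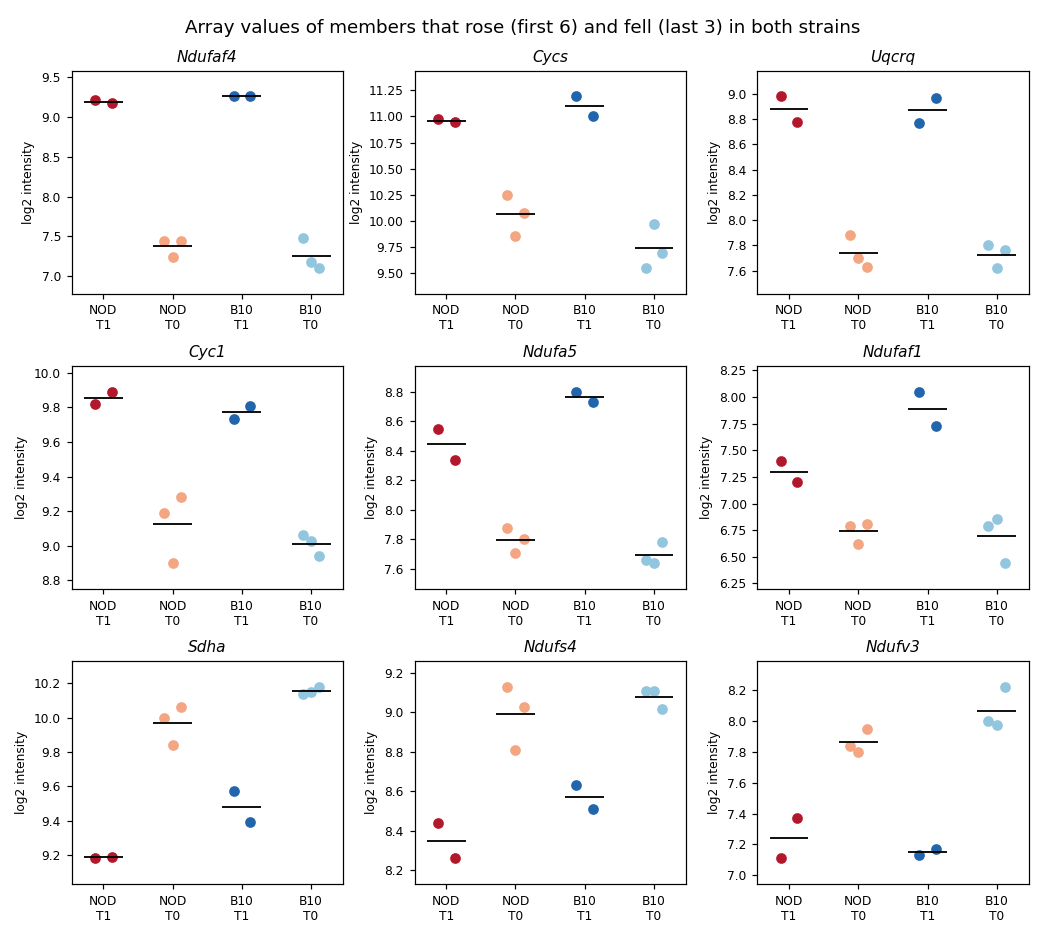
Log2 intensity on each array for 9 genes in NOD at T1, NOD at T0, B10 at T1 and B10 at T0, with short bars at the group means. Ndufaf4, Cycs, Uqcrq, Cyc1, Ndufa5 and Ndufaf1 were higher at T1 and Sdha, Ndufs4 and Ndufv3 lower at T1, with no overlap between states within a strain.

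Complex IV, cytochrome c oxidase, has nuclear subunits of general use and others used in muscle, testis, lung or under low oxygen. Of 11 general subunits 1 rose in NOD and 3 rose in B10, and 0 fell. Cox5a, a matrix-side subunit, had values of 9.94 and 9.86 in NOD at T1, against 9.43, 9.25 and 9.40 in NOD at T0. In B10 they were 10.16 and 10.07 at T1, against 9.34, 9.27 and 9.23 at T0. It rose 1.45-fold in NOD (0.54 ± 0.10, adjusted p = 0.000701) and 1.79-fold in B10 (0.84 ± 0.10, adjusted p = 1.68e-05), without overlap. None of the 8 tissue variants passed in either strain. Cox4i2, Cox6b2, Cox7a1, Cox7b2, Cox8b and Ndufa4l2 had levels no higher than the median of all genes, 6.31. No filter on low values was applied, so their values do not show that these forms were expressed. The difference between T1 and T0 for Cox4i2, the lung and low-oxygen form, was 0.25 in NOD and 0.08 in B10, beside 0.14 and 0.25 for its general partner Cox4i1. Among the muscle forms, Cox6a2 had -0.03 in NOD and -0.26 in B10 (0.17 in NOD and 0.32 in B10 for Cox6a1). Cox7a1 had 0.23 in NOD and -0.14 in B10 (0.04 and 0.33 for Cox7a2), and Cox8b had 0.04 in NOD and -0.07 in B10 (0.18 and 0.01 for Cox8a). All of these differences lay within 0.33 of 0. The testis forms Cox6b2 and Cox8c had -0.13 and 0.29 in NOD and 0.22 and 0.13 in B10, beside 0.18 in NOD and 0.33 in B10 for Cox6b1. Ndufa4l2, a low-oxygen paralogue of Ndufa4, came nearest with 0.45 ± 0.17 (adjusted p = 0.0528) in NOD and 0.38 ± 0.17 (adjusted p = 0.112) in B10, where Ndufa4 itself had -0.13 and -0.14. Of the general partners named here, Cox7a2 in B10 passed (adjusted p = 0.0338), a call lost under 8 of 20 alternatives, among them omission of any one B10 array (differences of 0.31 to 0.35, adjusted p of 0.0522 to 0.145).

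Complex V makes ATP in its F1 part, driven by a rotating ring in the membrane. Of 5 subunits of the catalytic F1 part, 0 rose and 1 fell in NOD and 1 rose and 0 fell in B10. Of 12 membrane and stalk subunits, 1 rose and 2 fell in NOD and 2 rose and 0 fell in B10. Atp5b, the catalytic beta subunit, had values of 12.03 and 12.23 in NOD at T1, against 11.90, 11.76 and 11.86 in NOD at T0. In B10 they were 12.21 and 12.15 at T1, against 11.56, 11.81 and 11.79 at T0. The B10 change passed (0.46 ± 0.11, adjusted p = 0.00505) and the NOD change did not (0.29 ± 0.11, adjusted p = 0.0563). Atp5a1, the alpha subunit, had differences of 0.00 in NOD and -0.01 in B10. The genes Atp5g1, Atp5g2 and Atp5g3 encode the same mature c subunit of the membrane ring behind different import sequences. Atp5g3 rose in both strains (0.29 ± 0.10, adjusted p = 0.0354 in NOD, 0.42 ± 0.10, adjusted p = 0.00417 in B10), the NOD call being lost under 7 of 20 alternatives. Atp5g1 had changes of 0.04 ± 0.13 (adjusted p = 0.827) in NOD and 0.51 ± 0.13 (adjusted p = 0.00985) in B10, where the call was lost without B10 T1 replicate 3 (0.44, adjusted p = 0.0895), and Atp5g2 of 0.26 ± 0.10 (adjusted p = 0.0666) and 0.15 ± 0.10 (adjusted p = 0.352). Atp5pb, the b subunit of the peripheral stalk, fell in NOD (-0.56 ± 0.12, adjusted p = 0.00324) and had -0.30 ± 0.12 (adjusted p = 0.0965) in B10.

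Marker levels of other cells moved with stimulation. The mean of 6 measured B cell markers (of 7 listed) was 7.03 on both NOD T1 arrays, against 8.73 to 9.0 in NOD at T0, and 7.14 to 7.18 in B10 at T1, against 8.58 to 8.85 in B10 at T0. The mean of 8 monocyte and macrophage markers was 6.97 to 7.23 in NOD at T1, against 8.54 to 8.85 in NOD at T0, and 6.57 to 6.85 in B10 at T1, against 7.73 to 8.22 in B10 at T0. For 5 neutrophil markers the means were 5.52 to 5.87 in NOD at T1, against 7.08 to 7.51 in NOD at T0, and 5.49 on both B10 T1 arrays, against 6.34 to 6.83 in B10 at T0. The mean of 6 measured CD4 T cell markers (of 8 listed) was also lower, at 9.63 to 9.89 in NOD at T1, against 10.68 to 10.79 in NOD at T0, and at 9.87 to 9.99 in B10 at T1, against 10.82 to 10.87 in B10 at T0. The means of all 4 lists were lower at T1, but single markers went the other way. In NOD, 1 of 6 CD4 T cell markers rose (0.46). In B10, 1 CD4 T cell marker (0.22) and 1 B cell marker (0.13) had positive changes without a call. NK cell markers (3 of 3 measured) averaged 5.54 to 5.59 in NOD at T1, against 5.57 to 5.68 in NOD at T0, and 5.74 to 5.94 in B10 at T1, against 6.35 to 6.46 in B10 at T0, where the states did not overlap. The 2 CD8 markers averaged 6.75 to 6.94 in NOD at T1, against 6.85 to 6.98 in NOD at T0, and 6.81 to 6.85 in B10 at T1, against 7.13 to 7.35 in B10 at T0, and both fell in B10. For 3 platelet markers the means were 5.63 to 5.84 in NOD and 5.65 to 5.81 in B10. The part of these shifts in the changes of the respiratory chain genes was not tested.

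Genes of other mitochondrial functions gave a scale for these changes. Over all genes, 16.1% rose and 19.5% fell in NOD, and 13.7% rose and 18.1% fell in B10. Of 20 genes of the import machinery, 16 rose (80%) and 0 fell in NOD and 17 rose (85%) and 0 fell in B10. The median change was 0.85 in NOD and 0.99 in B10. Timm10, a chaperone of the space between the membranes, rose by 1.95 ± 0.11 (adjusted p = 4.17e-08) in NOD and 2.56 ± 0.11 (adjusted p = 6.08e-09) in B10. Timm8a1, of the same chaperone family, and Tomm5, of the outer membrane gate, rose by 1.81 in NOD and 2.10 in B10 and by 1.58 in NOD and 1.71 in B10. A further 77 genes encode mitochondrial ribosomal proteins, which serve the translation of the subunits encoded in mitochondrial DNA. Of these, 38 rose (49.4%) and 8 fell (10.4%) in NOD and 48 rose (62.3%) and 4 fell (5.19%) in B10. Mrps18b rose by 1.46 ± 0.10 (adjusted p = 2.05e-07) in NOD and 1.5 ± 0.10 (adjusted p = 1.53e-07) in B10, Mrpl17 by 1.34 in NOD and 1.63 in B10, and Mrpl16 by 1.11 in NOD and 1.42 in B10. The median change of the ribosomal genes was 0.335 in NOD and 0.485 in B10. All named values in the import and ribosomal lists passed the threshold.

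Lists closer to respiration were more mixed, and several of their shares lay near those of genes above the median level. Of those genes, 21.5% rose and 34.6% fell in NOD, and 23.1% rose and 32.2% fell in B10. Of 33 further assembly factors, 7 rose (21.2%) and 4 fell (12.1%) in NOD and 10 rose (30.3%) and 4 fell (12.1%) in B10. The medians were 0.096 in NOD and 0.126 in B10. Sco1, which delivers copper to complex IV, rose by 1.12 in NOD and 1.26 in B10, and Coa7, also needed for complex IV, by 0.77 in NOD and 0.86 in B10. Tmem126b, a partner of Ndufaf1 in complex I assembly, fell by 1.54 (adjusted p = 1.82e-06) in NOD and by 1.21 (adjusted p = 1.41e-05) in B10. The citrate cycle and pyruvate dehydrogenase, counted without complex II, had 17 genes. Of these, 3 rose (17.6%) and 6 fell (35.3%) in NOD and 5 rose (29.4%) and 6 fell (35.3%) in B10. The medians were 0.0 in NOD and 0.177 in B10. Idh3a, of the NAD-dependent isocitrate dehydrogenase, rose by 0.88 in NOD and 1.23 in B10 and Dlst by 0.62 in NOD and 0.80 in B10, while Idh2, the NADP-dependent enzyme, fell by 0.89 in NOD and 0.59 in B10. Of 17 regulators of mitochondrial biogenesis, 4 rose and 4 fell in NOD (23.5% each) and 3 rose and 3 fell in B10 (17.6% each). The medians were 0.025 in NOD and 0.08 in B10. Myc rose by 2.67 in NOD and 3.17 in B10 and the coactivator Pprc1 by 1.65 in NOD and 1.49 in B10, and Yy1 fell by 0.84 in NOD and 0.63 in B10. Nrf1 and Gabpa, whose strings were searched in the promoters, did not pass, with changes of -0.01 in NOD and 0.09 in B10 for Nrf1 and 0.07 in NOD and 0.17 in B10 for Gabpa. Tfam, which packages mitochondrial DNA, fell in NOD (-0.70 ± 0.16, adjusted p = 0.00438) and had a change of -0.33 (adjusted p = 0.155) in B10.

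**Figure D3:**
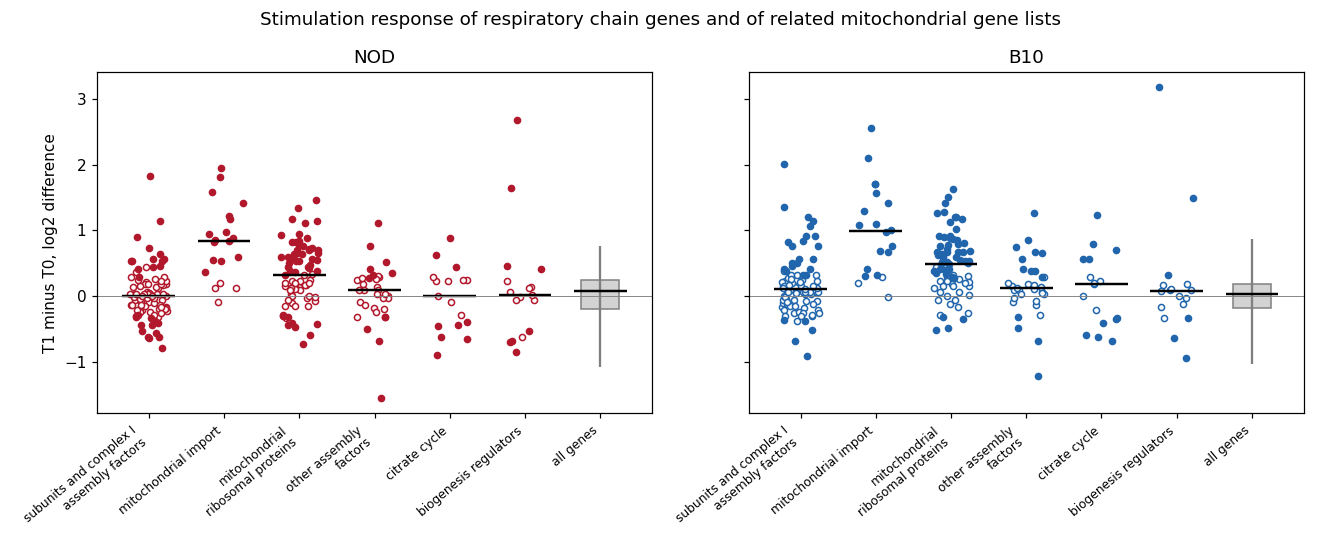
Log2 change on stimulation (T1 minus T0) of single genes in the respiratory chain set and in the related lists, in NOD and in B10, with bars at list medians and, for all genes, a box from the lower to the upper quartile and a line from the 5th to the 95th percentile. Filled points passed an adjusted p of 0.05; the import list lies highest, with medians of 0.85 in NOD and 0.99 in B10, while the 91 respiratory chain genes have medians of 0.012 and 0.111.

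No respiratory chain gene passed limma's test of a response that differs between the strains. The interaction, the NOD response minus the B10 response, gave 0 calls of 91, against 0.246% of all genes, and the smallest adjusted p was 0.322. In simulated data of the same design, this test called 5% of genes given a difference of 0.5 and 59% of those given 1. The values of the 91 genes ran from -0.64 to 0.37, so 0 calls do not show that the responses were equal. At an unadjusted p under 0.05 there were 10 genes, all with a smaller or more negative response in NOD, among them Sdhb, Cycs, Cox5a, Ndufa5, Ndufaf1 and Ndufab1. These are 11% of the 91, while 9.23% of all genes had an unadjusted p under 0.05 in either direction and 4.65% with a negative value, and among the brighter genes (those above the median level) the shares were 11.3% and 7.35%. The interaction value was negative for 70 of 91 genes (76.9%) with a median of -0.126, against 47.4% and 0.014 over all genes and 58.5% and -0.042 over the brighter genes. Genes called in one strain and not in the other are thus not shown to differ between strains. They were 8 genes that rose in B10 alone (Ndufv2, Ndufb6, Ndufb10, Uqcr11, Cox7a2, Cox7b, Atp5b and Atp5g1) and Ndufs6, which rose in NOD alone. Sdhc fell in B10 alone, and 10 fell in NOD alone (Ndufv1, Ndufa6, Ndufa11, Ndufb11, Ndufc1, Sdhb, Uqcrb, Atp5c1, Atp5j and Atp5pb). The label of Uqcr11 depended on the probe set. With every probe set tested, its second one rose in NOD (0.40, adjusted p = 0.0104) and in B10 (0.33, adjusted p = 0.0272). The second probe set of Cox7b gave 0.37 in NOD and 0.41 in B10, and neither passed. That of Atp5g1 gave 0.02 in NOD and 0.47 in B10, and the latter passed. NOD T0 replicate 2 had low values for most of the 91 genes, with a median deviation of -0.153 from the gene means, while the medians of the other arrays lay between -0.054 and 0.128. Without that array the NOD counts were 15 rises and 11 falls, and the median NOD change of the 91 genes was -0.076. The median interaction was then -0.21, with 73 of 91 values negative, so the size of both medians depended on this array.

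Between the strains 3 genes were lower in NOD in both states: Ndufs5, Atp5md and Cox7a2l. At T0, 6 of 91 were lower and 1 was higher in NOD, against 2.35% and 3.44% of all genes. At T1, 3 were lower and 1 was higher, against 1.83% and 1.77%. Of the brighter genes, 3.93% were lower and 5.33% higher at T0, beside 6.59% and 1.1% of the 91. At T1, 3.16% of the brighter genes were lower and 2.89% higher, beside 3.3% and 1.1% of the 91. The share of lower genes at T1 was thus close to that of the brighter genes. Of all genes, 0.782% were lower in NOD in both states. The median difference over the 91 genes was -0.015 at T0, equal to that of all genes. At T1 it was -0.147, where the median was 0.009 over all genes and -0.047 over the brighter genes. Without NOD T0 replicate 2 the T0 median was 0.021, against -0.03 over all genes. Strain differences are likewise described for genes without overlap between strains, a pattern found at T1 for 21.6% of all genes with NOD higher and 20.2% with NOD lower, and at T0 for 11.1% and 11.7%. These contrasts use the same arrays as the stimulation contrasts.

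Ndufs5, an accessory subunit on the intermembrane-space side of the membrane arm, had T1 values of 6.64 and 6.58 in NOD, against 7.79 and 8.12 in B10. Its T0 values were 6.80, 6.45 and 6.63 in NOD, against 7.85, 7.94 and 7.95 in B10. All NOD arrays lay below all B10 arrays, and stimulation made little difference, with changes of -0.01 in NOD and 0.04 in B10. It was 2.53-fold lower in NOD at T1 (-1.34 ± 0.14, adjusted p = 0.000239) and 2.44-fold lower in NOD at T0 (-1.29 ± 0.11, adjusted p = 3.12e-05). Both calls were kept under all 19 alternatives. A further probe set, which the annotation assigns to Ndufs5 and the pseudogene Ndufs5-ps together, had strain differences of -0.33 ± 0.18 at T1 (adjusted p = 0.433) and 0.07 ± 0.15 at T0 (adjusted p = 0.928). Probe sequences were not used here, so whether the Ndufs5 difference is one of transcript level or of hybridisation to the probes was not tested.

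Cox7a2l, known for a role in supercomplexes of complexes III and IV, had T1 values of 10.39 and 9.99 in NOD, against 10.87 and 10.96 in B10. The T0 values were 10.70, 10.23 and 10.48 in NOD, against 11.08, 11.05 and 11.14 in B10. NOD arrays lay below B10 arrays in each state, by 1.65-fold at T1 (-0.73 ± 0.16, adjusted p = 0.0247) and 1.54-fold at T0 (-0.62 ± 0.13, adjusted p = 0.0129). Its second probe set gave smaller differences that did not pass, -0.40 ± 0.12 at T1 (adjusted p = 0.133) and -0.28 ± 0.10 at T0 (adjusted p = 0.196). Whether the Cox7a2l difference is one of transcript level or of hybridisation to the probes was not tested either. The T1 call was lost under 7 of 19 alternatives, among them the test of every probe set (adjusted p = 0.0704) and of only the arrays compared (adjusted p = 0.11). Without NOD T1 replicate 3 the T1 difference was -0.53. The T0 call was lost under 4 of 19, among them omission of B10 T0 replicate 1 (-0.62, adjusted p = 0.0505) or NOD T0 replicate 3 (-0.62, adjusted p = 0.0515). Atp5md, a small subunit of complex V known for a role in the pairing and stability of the enzyme, had T1 values of 9.60 and 9.64 in NOD, against 10.51 and 10.36 in B10. At T0 they were 9.86, 9.36 and 9.53 in NOD, against 10.27, 10.39 and 10.15 in B10. Here too the strains were apart in each state, with NOD 1.76-fold lower at T1 (-0.81 ± 0.15, adjusted p = 0.012) and 1.61-fold lower at T0 (-0.68 ± 0.12, adjusted p = 0.00615). Its 3 probe sets gave -0.81, -0.90 and -0.89 at T1 and -0.68, -0.59 and -0.66 at T0. The T1 call of Atp5md was lost under 4 of 19 alternatives and its T0 call under 1 of 19, the erythroid marker covariate given below. Omission of NOD T1 replicate 3 was among the 4, with a T1 difference of -0.83.

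At T0, 2 further complex V genes and Ndufa12 were lower in NOD. Atp5e, the epsilon subunit of F1, had T0 values of 8.60, 8.47 and 8.63 in NOD, against 9.19, 8.98 and 8.90 in B10, a difference of -0.46 ± 0.10 (adjusted p = 0.0191). Atp5g2 had T0 values of 10.04, 9.82 and 9.99 in NOD, against 10.46, 10.35 and 10.26 in B10, a difference of -0.41 ± 0.09 (adjusted p = 0.02) that was -0.41, -0.40 and -0.41 on its 3 probe sets. Strains did not overlap at T0 for either gene, and at T1 the differences were -0.43 ± 0.13 (adjusted p = 0.0877) for Atp5e and -0.29 ± 0.11 (adjusted p = 0.205) for Atp5g2. The T0 call was lost under 6 of 19 alternatives for Atp5e and under 5 of 19 for Atp5g2. Ndufa12 had a T0 difference of -0.45 ± 0.12 (adjusted p = 0.0446), which was lost under 8 of 19 alternatives. Higher in NOD were Cox6b2, the testis form, at T0 (0.42 ± 0.11, adjusted p = 0.0477) and Sdhc at T1 (0.44 ± 0.10, adjusted p = 0.0352). These calls were lost under 11 of 18 and 13 of 19 alternatives. The level of Cox6b2 was no higher than the median of all genes, with T0 means of 6.46 in NOD and 6.04 in B10. Its call therefore does not show that the testis form was expressed. Leaving out single T0 arrays moved the count of lower genes, which was 2 without B10 T0 replicate 1, 2 without NOD T0 replicate 3 and 3 without B10 T0 replicate 2. Over all genes these omissions left 299, 252 and 270 lower in NOD, against 469. Omitting NOD T1 replicate 3 or B10 T1 replicate 2 also moved the T1 counts, both among the 91 and over all genes. Each omission leaves 1 array in its group. The T1 median of the 91 genes was then -0.156 and -0.126.

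Erythroid markers differed between the strains in the same arrays. The mean of the 5 measured markers Alas2, Klf1, Car2, Epb42 and Slc4a1, of 8 listed, was 10.43 and 10.82 in NOD at T1, against 7.52 and 9.54 in B10 at T1. At T0 it was 10.52, 10.23 and 10.82 in NOD, against 7.95, 6.97 and 9.41 in B10. All NOD arrays were above all B10 arrays, and the 2 B10 arrays of replicate 3 were the highest of B10. All 5 markers were called higher in NOD at T0 (median 2.61) and 0 at T1 (median 2.08). Other marker lists also differed at T0, where 5 of 8 monocyte and macrophage markers (median 0.87) and 3 of 5 neutrophil markers (median 0.73) were higher in NOD, and 2 of 3 NK cell markers (median -1.15) and 1 of 2 CD8 markers were lower in NOD. At T1 none of the markers in these lists was called between strains. The part of these other cells in the strain differences was not tested. With the mean of Alas2, Klf1 and Car2 as a covariate, 1 gene stayed lower in NOD in each state, namely Ndufs5. The differences of Atp5md were then -0.66 at T1 (adjusted p = 0.245) and -0.51 at T0 (adjusted p = 0.445), and those of Cox7a2l -0.81 (adjusted p = 0.164) and -0.72 (adjusted p = 0.236). This covariate lowered the calls over all genes as well. At T0 they were 64 higher and 72 lower in NOD, against 686 and 469 in the main fit. At T1 they were 53 and 75, against 353 and 365. Without both B10 arrays of replicate 3, Cox7a2l had -0.68 at T1 (adjusted p = 0.126) and -0.60 at T0 (adjusted p = 0.0545). The part of erythroid RNA in the strain differences cannot be told apart from strain on these arrays.

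**Figure D4:**
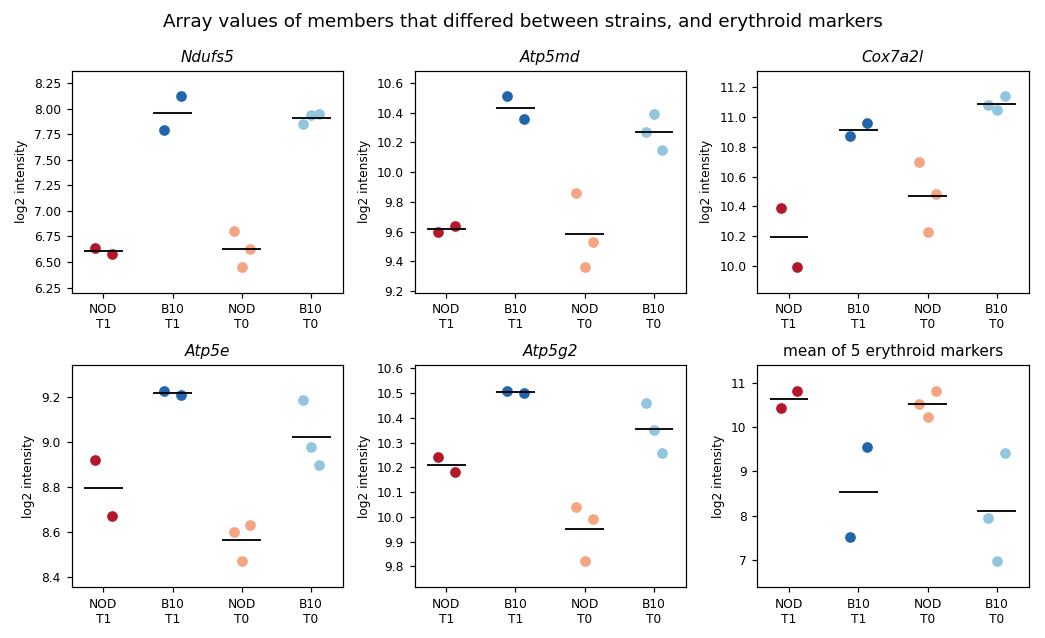
Log2 intensity on each array for 5 genes lower in NOD, and the mean of 5 erythroid markers, in NOD at T1, B10 at T1, NOD at T0 and B10 at T0, with short bars at the group means. Ndufs5 lies between 6.45 and 6.80 on the NOD arrays and between 7.79 and 8.12 on the B10 arrays, and the erythroid mean lies between 10.23 and 10.82 on the NOD arrays and between 6.97 and 9.54 on the B10 arrays.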

How the data were processed

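Total RNA of 10 samples was hybridised to 1 Affymetrix array each. The deposited values are log2 intensities. Per the submitters' processing notes, RMA and Affymetrix Power Tools were used; versions and options are not given in the sources used here. That the base is 2 follows from the range of the values and no label states it. The values do not share one distribution over the genes tested: the 75th percentile was 7.77 to 7.82 on T1 arrays, against 7.91 to 8.03 on T0 arrays, which is why another scaling moves the counts. Changes near background are understated. The number of arrays limits precision.

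Of 35486 probe sets, 21789 had 1 gene symbol, 1621 several and 12076 none in the platform annotation. The brightest probe set with 1 symbol stood for each of 19938 genes. Names follow GRCm38.p6 RefSeq through gene identifiers, which matched for all 91 genes described.

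limma 3.58.1 in R 4.3.3 fitted 4 group means to all 10 arrays (6 residual and 6.3 prior degrees of freedom). T1 minus T0 was tested within each strain, NOD minus B10 within each state, and the interaction as the fifth contrast. Benjamini-Hochberg adjustment ran over all genes of a contrast, with a threshold of 0.05. Errors are limma's standard errors. The fitting code was tested on simulated data.

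The genes and lists were chosen with earlier results of these data known. Named genes were the 8 largest rises and falls per stimulation contrast and the 5 largest differences each way per strain contrast that passed with no overlap between arrays, complex II, Cyc1, Cycs, the tissue variants with their partners, and up to 3 genes per related list. Further genes were named after their values were seen.

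Alternatives were another scaling, the mean of all probe sets, every probe set, brighter genes, trend and robust eBayes, only the arrays compared, replicate blocks, an erythroid marker covariate, omission of both B10 replicate 3 arrays, and omission of each array. Replicate numbers were checked as pairs by correlating the deviations of T1 and T0 arrays from their group means. These were -0.0145 and 0.219 for replicates 2 and 3 of NOD and 0.413 and 0.404 for those of B10. The first was below the minimum of 0.1, so no block was used. Figures were drawn with matplotlib 3.10.9.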

Additional observations from a re-analysis of the deposited data

How the results depend on the processing

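Counts are out of 91 genes (83 where only brighter genes were tested), and the range after leaving out each array in turn is given first. In NOD, 14 genes rose (13 to 15) and 14 fell (7 to 14, lowest without NOD T1 replicate 3). In B10, 21 rose (16 to 23) and 5 fell (4 to 7). At T0, 1 gene was higher in NOD (0 to 1) and 6 were lower (2 to 6), and at T1, 1 was higher (0 to 1) and 3 were lower (1 to 4). The interaction gave 0 calls under every alternative run. Scaling to one 75th percentile gave 34 rises and 6 falls in NOD, 36 rises and 3 falls in B10, and 0 genes higher in NOD in either state. With only brighter genes 10 fell in B10 and 5 were lower in NOD at T1, and with trend and robust settings these counts were 12 and 7. With every probe set tested, 0 were higher in NOD in either state. With only the arrays compared, 0 were higher and 1 was lower in NOD at T1. Without both B10 arrays of replicate 3, 3 fell in B10 and 0 were higher in NOD in either state. The erythroid covariate left 0 higher and 1 lower in NOD in each state. Over all genes it left 64 higher and 72 lower at T0 and 53 and 75 at T1. A random replicate block gave 16 rises and 14 falls in NOD, 24 and 8 in B10, and 0 genes higher and 6 lower in NOD at T0; a fixed replicate block gave 13 and 10 in NOD and 25 and 6 in B10. It was not run between strains, in which it is nested. Over the 5 contrasts the 91 genes had 65 calls, of which 31 were kept under every alternative. Another 12 were lost under 1 or 2 alternatives and 22 under 3 or more. In NOD the falls of Ndufa11, Ndufc1 and Atp5j were lost under 13, 12 and 11 of 20. In B10 the rises of Cox7b and Uqcr11 were lost under 9 and 8 of 20. Of the 46 calls of genes named by the rules above, 27 were kept under every alternative and 19 were lost under at least 1. No called value changed sign. The cause was not tested.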

Other observations

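Probe sets that the annotation assigns to a respiratory chain gene together with a second gene were kept out of the gene tests. The 3 probe sets of Cox7c, a complex IV subunit, shared with the predicted gene Gm12338, had differences between T1 and T0 of 0.25 each in NOD (adjusted p = 0.0702, 0.0783 and 0.0791) and of 0.43, 0.45 and 0.42 in B10 (adjusted p = 0.00626, 0.00571 and 0.00781). The 2 probe sets shared by Ndufb4 and Ndufb4b had changes of -0.02 and 0.01 in NOD and of 0.10 and 0.16 in B10. The probe set shared by Ndufs5 and Ndufs5-ps had -0.5 ± 0.16 in NOD (adjusted p = 0.0516) and -0.10 ± 0.16 in B10 (adjusted p = 0.731).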
